A study of Rattus norvegicus with 9 samples.

Results

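Matrix metalloproteinases (MMPs) are zinc-dependent enzymes that are made as inactive proenzymes and cut the proteins of the extracellular matrix once their propeptide has been removed. Tissue inhibitors of metalloproteinases (TIMPs) bind the active enzymes and block them. In cartilage and growing or remodelling bone the family is best known for the cleavage of type II collagen and aggrecan. Described here are 10 of these genes, taken by name from the 32043 genes of the expression table: the 6 MMP genes Mmp2, Mmp3, Mmp13, Mmp14, Mmp16, and Mmp19 and the 4 inhibitor genes Timp1, Timp2, Timp3, and Timp4. Each of the 10 had its own entry, and all 10 were among the 13898 genes that passed the filter on low values (a mean FPKM of at least 0.5 over the libraries).

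RNA sequencing was performed on knee cartilage of male Sprague–Dawley rats, bought at an age of 8 weeks, with 3 libraries in each of 3 groups. Control rats had a sham procedure, opening and closure of the joint capsule. The model group underwent the modified Hulth operation, in which the medial collateral and anterior cruciate ligaments are cut and the medial meniscus is taken out, together with forced activity, to produce knee osteoarthritis (KOA). The group labelled SYD had the same operation and activity and was then given by gavage, over 4 weeks, an extract of Shengyu decoction (SYD), a preparation of 7 botanical drugs; the labels name no dose and give these libraries names that begin with CXTB, and the text of the study calls the sequenced treated group SYD-H, the highest of its 3 doses. Tissue was taken 8 weeks after surgery. The labels do not say whether control and model rats were gavaged. Whether each library came from a separate rat is not stated either, so all p-values measure the spread between these libraries, which may be technical.

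Levels are FPKM (fragments scaled by the authors for gene length and for a size of each library), which allows comparison between genes of a library. The size used was not the number of recovered reads: the steps of the FPKM imply 3.64e+06 for model library 1, which held 18815977 reads, and 3.00e+07 for control library 1, which held 14914121. The implied size went instead with the reads on non-mitochondrial genes, 1744769 in model library 1 and 14306782 in control library 1. Accordingly the FPKM of all genes summed to 186938 to 202792 in the control libraries and to 4.93e+06 in model library 1. Without the mitochondrial genes they summed to 162215 to 248017 over all libraries. The deposited FPKM thus lie near a scaling to non-mitochondrial genes, whereas TPM also counts the mitochondrial ones. Differences between libraries depend on this scaling, so those of the 10 genes are also given in TPM. For the accompanying lists all calls are in FPKM only. The libraries held between 14914121 and 19510537 recovered reads, but reads of mitochondrial genes took 4.05% to 4.86% of them in the control group, 39.5% to 90.7% in the model group, and 23.7% to 72.7% in the SYD group. This left 1744769 and 3611325 reads on all other genes in model libraries 1 and 3 and at least 5153851 in every other library. Of the 12 chondrocyte markers all were detected in each control library, and their summed FPKM was 456, 5688, and 10895 there, against 159 to 803 in the model group and 158 to 1214 in the SYD group, where Matn1, a cartilage matrix protein, was at 0 in all 6 libraries, Matn3 at 0 in model libraries 1 and 3 and SYD library 3, and Cnmd at 0 in model library 2. Markers of osteoblasts, osteoclasts, neutrophils, and red blood cell precursors were also detected in every group. In such bulk samples, fewer cells of a type and less RNA per cell cannot be told apart.

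Mmp13 encodes collagenase 3, the main enzyme that cuts type II collagen in cartilage, and it is also made by hypertrophic chondrocytes and osteoblasts. It lies on chromosome 8, from 4497960 to 4508239 on the plus strand in the positions of the deposited table. Mmp13 had the highest mean level of the 10 genes in every group. It stood at 87.6, 54.4, and 106 FPKM in control libraries 1, 2, and 3, at 153, 397, and 87.9 FPKM in model libraries 1, 2, and 3, and at 737, 283, and 245 FPKM in SYD libraries 1, 2, and 3. All 3 SYD libraries lay above all 3 control libraries, whereas model library 3 lay within the control range and model library 2 within the SYD range. The mean rose from 82.7 ± 26.2 FPKM (SD, n = 3) in the control group to 422 ± 274 FPKM (SD, n = 3) in the SYD group, a fold of means of 5.10. On the log2(FPKM + 1) scale, which understates the change of low genes, the SYD-to-control difference was 2.21 ± 0.49 (SE, adjusted p = 0.0348 with limma and Benjamini–Hochberg adjustment over all genes tested).

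Mmp3 encodes stromelysin 1, which cuts aggrecan and other proteoglycans and can activate procollagenases. It lies close to Mmp13, on chromosome 8 from 4640416 to 4653961 on the plus strand. In the control group Mmp3 was nearly silent, at 1.81, 0.119, and 1.22 FPKM in libraries 1, 2, and 3, which rest on 99, 8, and 88 reads. In the model group the 3 libraries held 0, 18.3, and 35.3 FPKM, and in the SYD group they held 24.7, 18.1, and 37.3 FPKM. Model libraries 2 and 3 were above all control libraries, whereas model library 1 was listed at 0, a count of 0 reads that allows a level of up to 0.452 FPKM (3 reads, counting error only). Every SYD library lay above every control library, and the SYD mean of 26.7 ± 9.72 FPKM (SD, n = 3) was 25.5 times the control mean of 1.05 ± 0.856 FPKM (SD, n = 3). The SYD-to-control log2 difference of 3.80 ± 0.42 (SE) was the largest of the 10 genes and passed adjustment (limma, adjusted p = 0.0087).

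Timp1 encodes a secreted inhibitor of most soluble MMPs that is induced by growth factors and inflammatory cytokines. It lies on chromosome X from 1212972 to 1217664 on the minus strand and overlaps the Syn1 gene on the opposite strand. Its level was 30.6, 11.1, and 23.9 FPKM in control libraries 1, 2, and 3, 20.2, 129, and 14.0 FPKM in model libraries 1, 2, and 3, and 113, 128, and 54.9 FPKM in SYD libraries 1, 2, and 3. Model library 2 matched the highest SYD library, whereas model libraries 1 and 3 stayed within the control range. The SYD group lay above the control group without overlap, with a fold of means of 4.51 and a log2 difference of 2.14 ± 0.47 (SE, adjusted p = 0.0341 by limma). This adjusted call depended on every library but 1, since leaving out control library 1, 2, or 3 or SYD library 1 or 2 gave adjusted p-values (limma) of 0.062 to 0.107, and it was kept without SYD library 3 (0.0228). Syn1 itself reached at most 1.30 FPKM in any library, and whether the counting used strand is not given in the sources used here.

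Because these 3 genes had the largest SYD-to-control differences on the log2(FPKM + 1) scale (by fold of means Timp4, at 5.92 but of low level, exceeded Mmp13 and Timp1), their promoters are shown, as the 250 bases before the gene start in RefSeq (rat build GRCr8, 5′ to 3′ on the strand of the gene). Those coordinates belong to another build than the gene positions of the expression table and were not compared with them. Capitals mark matches to TGAGTCA on either strand, the letters bound by the AP-1 (Fos and Jun) family, and to AACCACA on either strand, letters bound by the RUNX family that includes the osteoblast factor Runx2. The regions are chr8:12925031-12925280 (plus strand) for Mmp3, chr8:12782579-12782828 (plus strand) for Mmp13, and chrX:3771123-3771372 (minus strand) for Timp1.
Mmp3: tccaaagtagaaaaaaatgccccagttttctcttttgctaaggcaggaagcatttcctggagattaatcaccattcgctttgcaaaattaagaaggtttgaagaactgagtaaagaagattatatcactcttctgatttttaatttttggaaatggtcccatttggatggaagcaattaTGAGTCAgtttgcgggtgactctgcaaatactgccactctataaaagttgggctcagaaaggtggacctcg
Mmp13: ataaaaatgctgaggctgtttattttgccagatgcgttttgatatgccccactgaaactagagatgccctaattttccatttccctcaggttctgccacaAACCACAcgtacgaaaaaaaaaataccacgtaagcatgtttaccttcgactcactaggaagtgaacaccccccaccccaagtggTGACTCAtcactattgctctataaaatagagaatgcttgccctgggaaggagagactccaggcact
Timp1: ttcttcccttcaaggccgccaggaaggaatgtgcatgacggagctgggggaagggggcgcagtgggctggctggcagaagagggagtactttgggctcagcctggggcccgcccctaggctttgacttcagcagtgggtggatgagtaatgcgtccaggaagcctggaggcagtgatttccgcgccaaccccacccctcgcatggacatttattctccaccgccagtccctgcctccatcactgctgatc
The AP-1 letters stood 71 to 65 bases before the start of Mmp3 and, as TGACTCA, 66 to 60 bases before the start of Mmp13. The RUNX letters stood 150 to 144 bases before the start of Mmp13. Of the 10 genes 6 had a promoter in the RefSeq table, and in the other 4 of these (Timp1, Timp2, Timp3, and Timp4) neither set of letters was in the window. Over all 33469 promoters of that length, 4.05% held the AP-1 letters and 4.59% held the RUNX letters. A match describes the sequence and is not evidence that a factor was bound there.

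Mmp2 encodes gelatinase A, which degrades denatured collagen and basement membrane collagen, and Mmp14 encodes the membrane-bound collagenase MT1-MMP, which activates proMMP-2 at the cell surface together with TIMP-2. Mmp2 (chromosome 19, 14154657 to 14182870, minus strand) stood at 52.2, 16.6, and 36.3 FPKM in control libraries 1, 2, and 3, at 12.7, 95.3, and 40.6 FPKM in model libraries 1, 2, and 3, and at 81.9, 131, and 48.1 FPKM in SYD libraries 1, 2, and 3. The lowest SYD library lay just below the highest control library, and the model group spanned from below the lowest control value to above 2 of the 3 SYD values. Mmp14 (chromosome 15, 27887727 to 27899864, plus strand) was measured at 53.6, 19.5, and 41.3 FPKM in the control group, 15.2, 54.1, and 30.6 FPKM in the model group, and 47.8, 112, and 49.7 FPKM in the SYD group, each in library order 1, 2, 3. Its 3 groups overlapped, and SYD library 2 alone was above all the others. The reads behind Mmp2 and Mmp14 in model library 1 were 146 and 151.

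Mmp16 encodes MT3-MMP, a second membrane-bound enzyme able to activate proMMP-2, and Mmp19 encodes a secreted enzyme that cuts basement membrane and cartilage proteins including COMP. The level of Mmp16 (chromosome 5, 31312280 to 31548388, plus strand) was 5.21, 3.10, and 4.59 FPKM in control libraries 1 to 3, 5.22, 5.59, and 3.28 FPKM in model libraries 1 to 3, and 7.49, 7.24, and 6.13 FPKM in SYD libraries 1 to 3. These levels spanned the narrowest range, relative to their mean, of the 10 genes, and all SYD libraries lay above all control and all model libraries. Mmp19 (chromosome 7, 1221343 to 1229555, plus strand) stood at 3.10, 2.37, and 3.43 FPKM in the control group, at 3.50, 8.25, and 2.63 FPKM in the model group, and at 7.21, 13.9, and 4.35 FPKM in the SYD group, again in library order. Its SYD libraries were all above its control libraries, and model library 2 was above 2 of the 3 SYD libraries.

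Timp2 encodes the inhibitor that also bridges MT1-MMP and proMMP-2 during activation. Its entry (chromosome 10, 103531505 to 103590611, minus strand, with a gene length of 13014 bases) overlaps Cant1 on the same strand, which reached 8.94 FPKM, so reads of both genes may be shared there. Timp2 was at 9.97, 4.30, and 9.19 FPKM in control libraries 1 to 3, 3.53, 17.3, and 7.37 FPKM in model libraries 1 to 3, and 22.4, 23.6, and 9.50 FPKM in SYD libraries 1 to 3. SYD library 3 lay between control libraries 1 and 3, and the other SYD libraries were above all control and model values. Timp3 encodes the inhibitor that stays bound to the matrix and also blocks the aggrecan-cutting ADAMTS enzymes. Timp3 (chromosome 7, 17521919 to 17571839, minus strand) was measured at 32.8, 9.80, and 22.3 FPKM in the control group, 4.09, 18.9, and 22.7 FPKM in the model group, and 53.7, 38.3, and 10.1 FPKM in the SYD group. The groups overlapped widely, with SYD library 3 close to the lowest control library, and the value of model library 1 rests on 26 reads. Syn3, on the opposite strand of the same region, did not exceed 0.201 FPKM.

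Timp4 encodes a further inhibitor, best known from heart, brain, and fat. It lies on chromosome 4 from 148304490 to 148312558 on the minus strand, and overlaps Syn2 on the opposite strand, which did not exceed 0.0124 FPKM. Timp4 had the lowest mean of the 10 genes in every group, at 0.650, 0.210, and 0.542 FPKM in control libraries 1, 2, and 3, at 2.98, 0.796, and 2.93 FPKM in model libraries 1, 2, and 3, and at 4.95, 0.817, and 2.53 FPKM in SYD libraries 1, 2, and 3. All operated libraries, treated or not, were above all control libraries. The counts were small, with 25 to 69 reads in the control group, 35 to 68 in the model group, and 75 to 425 in the SYD group.

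**Figure D1:**
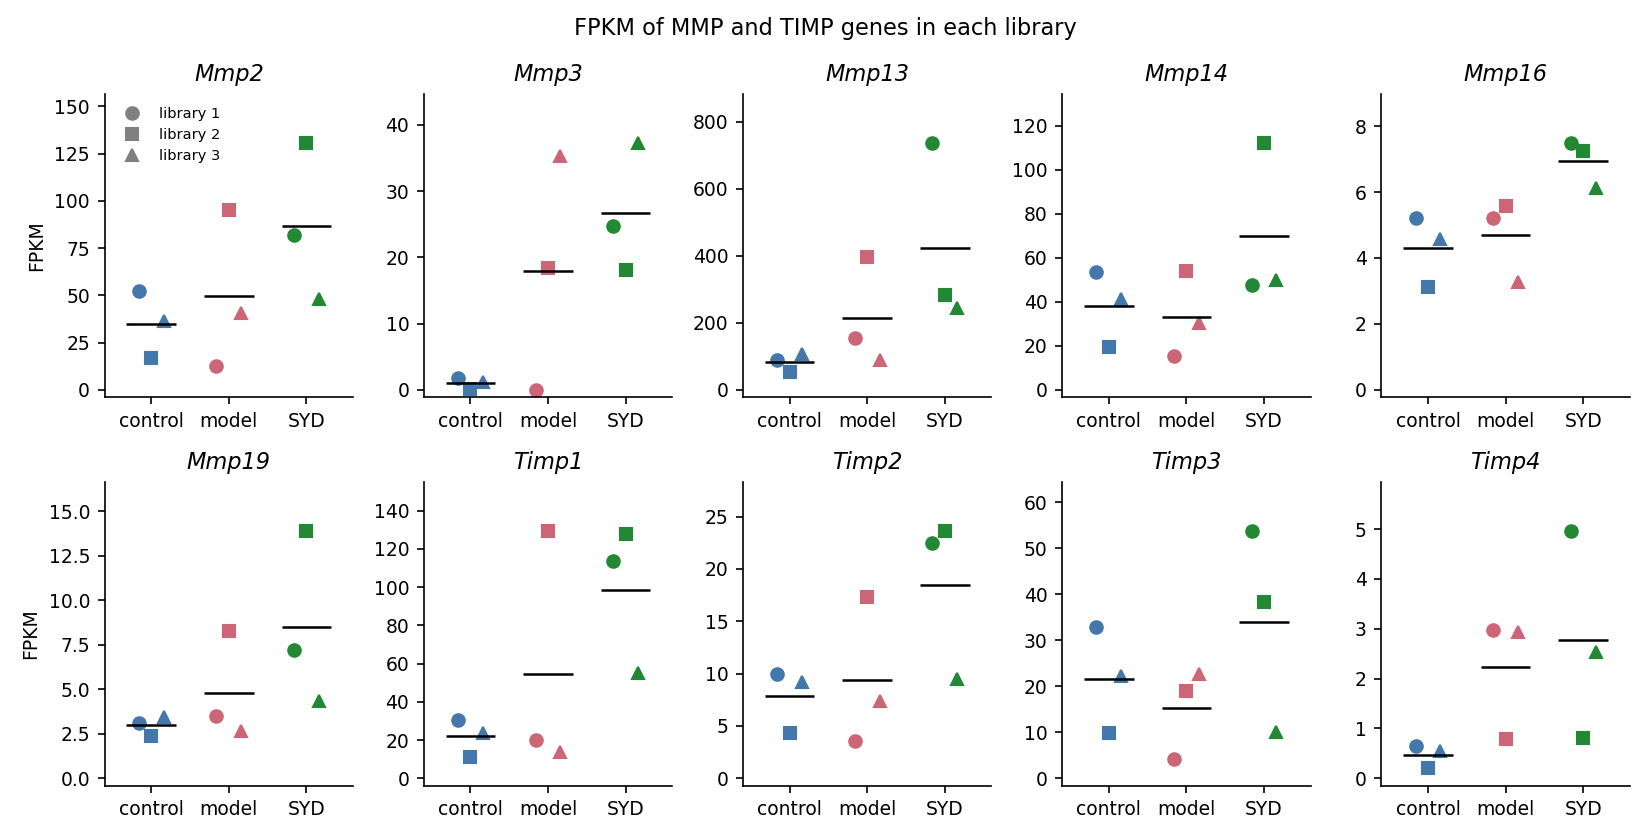
FPKM of each of the 10 genes (vertical axes, linear, 1 scale per gene) in the control, model, and SYD groups (horizontal axis); each point is 1 library, its shape gives the library number, and the horizontal lines mark the group means. In Mmp3, Mmp13, Mmp16, Mmp19, Timp1, and Timp4 all SYD points lie above all control points (in TPM only for Mmp3), and in the model group library 2 is the highest for 7 of the 10 genes.

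The libraries moved together across the genes. Control library 2 was the lowest of its group for 10 of the 10 genes, model library 2 was the highest of its group for 7, and SYD library 3 was the lowest of its group for 7. The 10 genes are therefore not independent measurements of a group. The pair most alike over the 9 libraries was Mmp2 and Timp2 (Pearson r = 0.97 of log2(FPKM + 1)), and the least alike pair was Mmp14 and Timp4 (r = -0.15), both given as descriptions over libraries that share their scaling.

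The order of levels differed little between the groups at its top and bottom ends. In the control group Mmp13 came first, followed by Mmp14, Mmp2, Timp1, Timp3, Timp2, Mmp16, Mmp19, Mmp3, and Timp4, and only the steps from Mmp13 to Mmp14 and from Mmp19 to Mmp3 were free of overlap between libraries. In the SYD group the order was Mmp13, Timp1, Mmp2, Mmp14, Timp3, Mmp3, Timp2, Mmp19, Mmp16, and Timp4, and neighbours were separated without overlap only between Mmp13 and Timp1 and between Mmp16 and Timp4. In the model group only the step from Mmp16 to Timp4 was free of overlap. Mmp3 was in the ninth place in the control group, the fifth in the model group, and the sixth in the SYD group.

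The comparison of model with control asks what the operation changed. Of the 10 genes Timp4 alone passed the call rule of the study, an unadjusted p under 0.05 with an absolute log2 fold change over 1, and it was higher in the model group. Over all genes tested, 14.7% passed that rule, 3.55% as higher and 11.2% as lower. The mean of Timp4 was 2.24 ± 1.25 FPKM (SD, n = 3) in the model group against 0.467 ± 0.229 FPKM (SD, n = 3) in the control group, and its log2 difference was 1.06 ± 0.41 (SE, limma adjusted p = 0.231). Its control mean was under 0.5 FPKM, so Timp4 passed the filter on low values only through the model and SYD groups. Such a filter favours a call as higher against control. None of the 10 genes passed adjustment, against 2.59% of all genes. Timp4 was also the only gene of the 10 whose model and control libraries did not overlap, against 8.65% of all genes with the model group higher and 28.7% in either direction (20.0% lower). Such a separation by itself fixes the exact permutation p at 0.1, the smallest that 3 against 3 libraries allow. In TPM the Timp4 libraries of the groups overlapped (model 0.604 to 1.79, control 1.04 to 3.36 TPM). The call of Timp4 was lost, while its log2 difference stayed at 1.06 to 1.94, with a pseudocount of 0.1, without a filter, with non-mitochondrial rescaling, with all 9 libraries in one fit, and with voom on recovered reads, which called Mmp19 higher instead (1.23). It was also lost without any 1 of the 3 control libraries or model library 1 or 3 (log2 differences of 0.87 to 1.15), and it was kept without model library 2 (limma adjusted p = 0.019). Without model library 1 Mmp3 was called higher instead (limma adjusted p = 0.0387), and without model library 3 Mmp13 was.

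For the collagenase and stromelysin genes the model-to-control differences were sizeable but within the spread of the model libraries. The log2 difference of Mmp3 was 2.22 ± 1.35 (SE, limma adjusted p = 0.432) and that of Mmp13 was 1.13 ± 0.59 (SE, limma adjusted p = 0.368). Values for Mmp2 (0.22), Mmp14 (-0.25), Mmp16 (0.10), Mmp19 (0.44), Timp1 (0.70), Timp2 (0.08), and Timp3 (-0.61) were smaller than their SEs (0.35 to 0.86). The median over the 10 genes was 0.33 and that over all genes tested was -0.23. After rescaling to TPM, which makes each library sum to the same total and so counts the mitochondrial reads, the median of all genes was -2.60, and 9 of the 10 genes had a negative difference, Timp4 among them at -0.62, with Mmp14, Mmp16, and Timp3 called lower, in a fit that called 75.2% of all genes (0.273% as higher). The sign of these differences thus depends on the scaling, and relative to the median of all genes 6 of the 10 were higher in TPM and 8 of the 10 in FPKM.

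The comparison of SYD with model asks what the treatment changed in operated joints. None of the 10 genes was called (limma, 0 at an unadjusted p under 0.05, and 0 with voom on recovered reads), where 4.15% of all genes passed, 3.62% as higher and 0.532% as lower, and 5.26% were at an unadjusted p under 0.05. All 10 differences were positive, with a median log2 difference of 1.09 beside 0.22 over all genes, of which 61.9% were positive. The differences were 1.10 ± 0.75 for Mmp2, 1.58 ± 1.30 for Mmp3, 1.08 ± 0.68 for Mmp13, 1.11 ± 0.55 for Mmp14, 0.50 ± 0.35 for Mmp16, and 0.70 ± 0.56 for Mmp19 (log2 scale, SE). Among the inhibitors they were 1.44 ± 0.84 for Timp1, 1.04 ± 0.61 for Timp2, 1.10 ± 0.81 for Timp3, and 0.15 ± 0.62 for Timp4. Mmp16 was the only gene whose SYD and model libraries did not overlap in FPKM, against 7.89% of all genes with SYD higher and 11.1% in either direction (3.17% lower). The exact permutation p of 0.1 follows from that separation. In TPM the Mmp16 libraries overlapped, with SYD library 3 (4.38 TPM) below model library 2 (12.6 TPM). Adjusted p-values (limma) were 0.723 for 9 of the genes and 0.952 for Timp4. In TPM the median over the 10 genes was 2.46 beside 1.22 over all genes, with 2.62 for Mmp2, 2.72 for Mmp13, 2.64 for Mmp14, and 2.97 for Timp1 (log2 scale), and again none was called.

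These values turned on single model libraries. Without model library 1, where Mmp3 was at 0, the log2 difference of Mmp3 was 0.0052, that of Mmp2 was 0.36, and that of Timp3 was 0.40, with a median over the 10 genes of 0.57. Model library 2 had the highest level of 7 of the 10 genes in its group, and without that library 5 genes were called higher in the SYD group (Mmp2, Mmp13, Mmp14, Timp1, and Timp2), with 18% of all genes called in the same fit. No reason to leave that library out was found in the labels. It had the lowest share of mitochondrial reads of the model group (39.5%) and, with 11106680 reads on other genes, the most reads behind its values.

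The comparison of SYD with control, which combines operation and treatment, gave the clearest differences. Higher in the SYD group were 7 of the 10 genes (Mmp2, Mmp3, Mmp13, Mmp19, Timp1, Timp2, and Timp4), and none was lower, where over all genes 16.5% were called, 7.25% as higher and 9.22% as lower. Mmp3, Mmp13, and Timp1 passed adjustment (adjusted p under 0.05), as did 17.3% of all genes, and Mmp3 alone did so in every fit that left out 1 library. In all, 8 of the 10 had an unadjusted p under 0.05, as had 34.5% of all genes. All 10 differences were positive, as were 49.8% of all genes, and their median was 1.17 beside 0 over all genes. For the other called genes the log2 differences were 1.31 ± 0.53 for Mmp2, 1.14 ± 0.39 for Mmp19, 1.12 ± 0.44 for Timp2, and 1.21 ± 0.44 for Timp4 (SE), with adjusted p-values (limma) of 0.141, 0.0987, 0.137, and 0.116. Timp4 passed the filter on low values only through the model and SYD groups, and without a filter it was still called here. Mmp16 differed by 0.60 ± 0.21 (SE, limma adjusted p = 0.0981) and stayed under the fold threshold, and Mmp14 and Timp3 differed by 0.86 ± 0.49 and 0.50 ± 0.71 (SE), which did not pass. In 6 genes (Mmp3, Mmp13, Mmp16, Mmp19, Timp1, and Timp4) all SYD libraries lay above all control libraries, as they did in 20.3% of all genes (22.2% lower, 42.5% in either direction). Such a separation by itself fixes the exact permutation p at the smallest that the design allows (0.1). In TPM the separation held for Mmp3 alone, and SYD library 3 was below all control libraries for Mmp13 (176 against 268 to 567 TPM), Mmp16 (4.38 against 15.3 to 27.0 TPM), Mmp19, and Timp1.

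**Figure D2:**
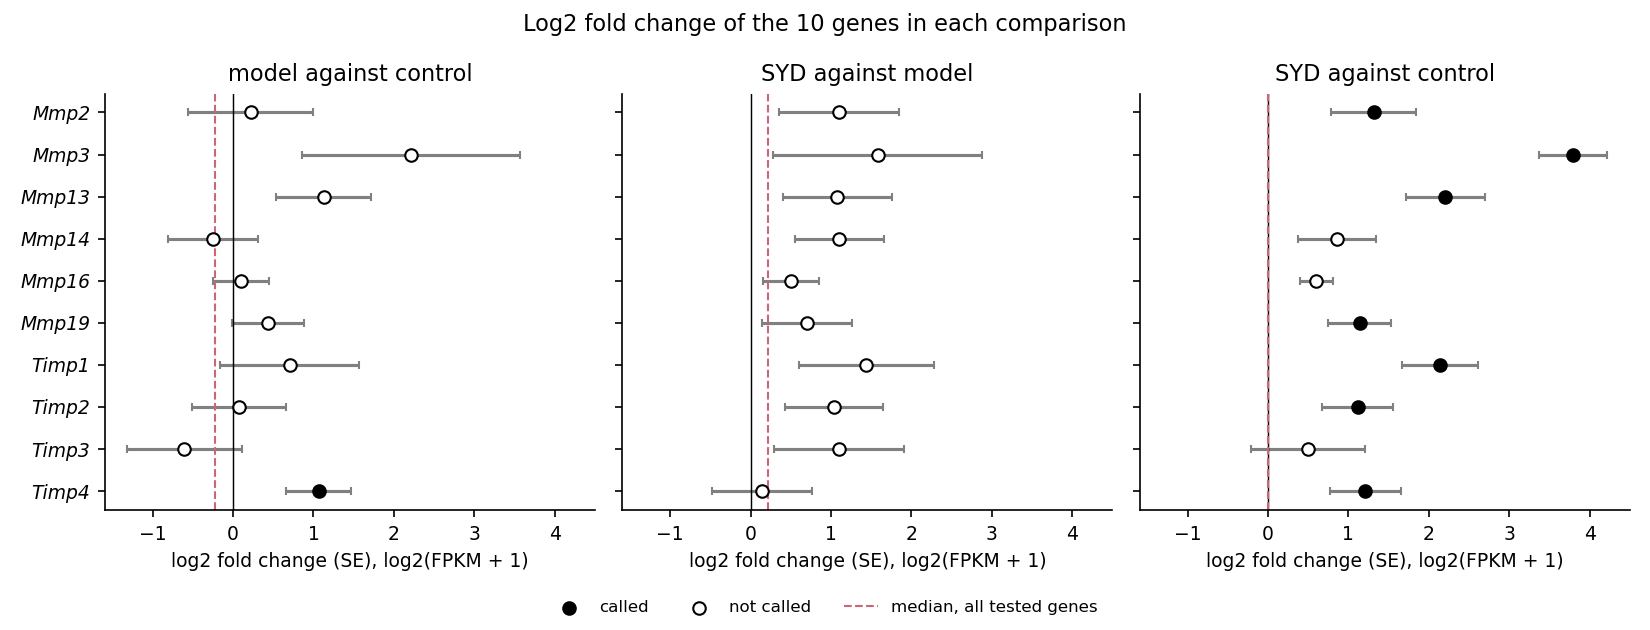
Log2 fold change of each gene on the log2(FPKM + 1) scale with its SE (horizontal axes) in model against control, SYD against model, and SYD against control; filled points were called and the dashed line is the median of all genes tested. Of the 10 genes 1 is called in the first panel, 0 in the middle one, and 7 in the last, where Mmp3 (3.80), Mmp13 (2.21), and Timp1 (2.14) stand farthest to the right; these are FPKM values, and in TPM 6 of the 10 SYD-to-control differences are negative.

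Since SYD against model and model against control share the model libraries, and both comparisons with control share the control libraries, their values are not independent. Side by side, the log2 differences of Mmp13 were 1.13 (model against control), 1.08 (SYD against model), and 2.21 (SYD against control), those of Timp1 were 0.70, 1.44, and 2.14, and those of Mmp3 were 2.22, 1.58, and 3.80. Over the 3 groups together, the exact permutation test gave no p under 0.05 for any of the 10 genes, whereas 18.6% of all genes reached that level. The lowest values were 0.0714 for Mmp13 and Mmp16, and the smallest that 9 libraries in 3 groups allow is 0.00357.

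Scaling bore on these differences. In TPM the median of all genes in SYD against control was -1.31, and 43.4% of all genes were called (0.921% as higher). On that scale Mmp3 was still called higher (3.21), Mmp13 and Timp1 had positive differences that were not called (0.67 and 0.65), and Mmp2, Mmp14, Mmp16, Mmp19, Timp2, and Timp3 turned negative (-0.99 to -0.11), although all 10 genes stayed above the median of all genes. Rescaling over the non-mitochondrial genes, which moved that median to -0.05, left 5 of the 7 calls (Mmp3, Mmp13, Mmp19, Timp1, and Timp4), with 22% of all genes called. Mmp3, Mmp13, and Timp1 were called higher in each of the 6 fits that left out 1 library and in every other alternative apart from TPM for Mmp13 and Timp1. The number of genes called was 3 without control library 2, control library 3, or SYD library 1, 4 without control library 1 or SYD library 2, and 6 without SYD library 3. Those fits called 12.9% to 18.7% of all genes. Adjusted p-values (limma) were less stable than these calls. Under 0.05 stayed Mmp3 in each of the 6 fits that left out 1 library (0.0142 to 0.0494), Mmp13 in 2 of 6 (0.0311 to 0.118, over 0.05 without any 1 control library or SYD library 2), and Timp1 in 1 of 6 (0.0228 to 0.107). Without a filter the adjusted p-values were 0.0152 for Mmp3, 0.0561 for Mmp13, and 0.0549 for Timp1. When all 9 libraries shared 1 estimate of the spread, 5 of the 10 genes were called, as were 12.9% of all genes. In that fit 0 of the 10 passed adjustment (limma adjusted p-values of 0.125, 0.106, and 0.196 for the same 3 genes).

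**Figure D3:**
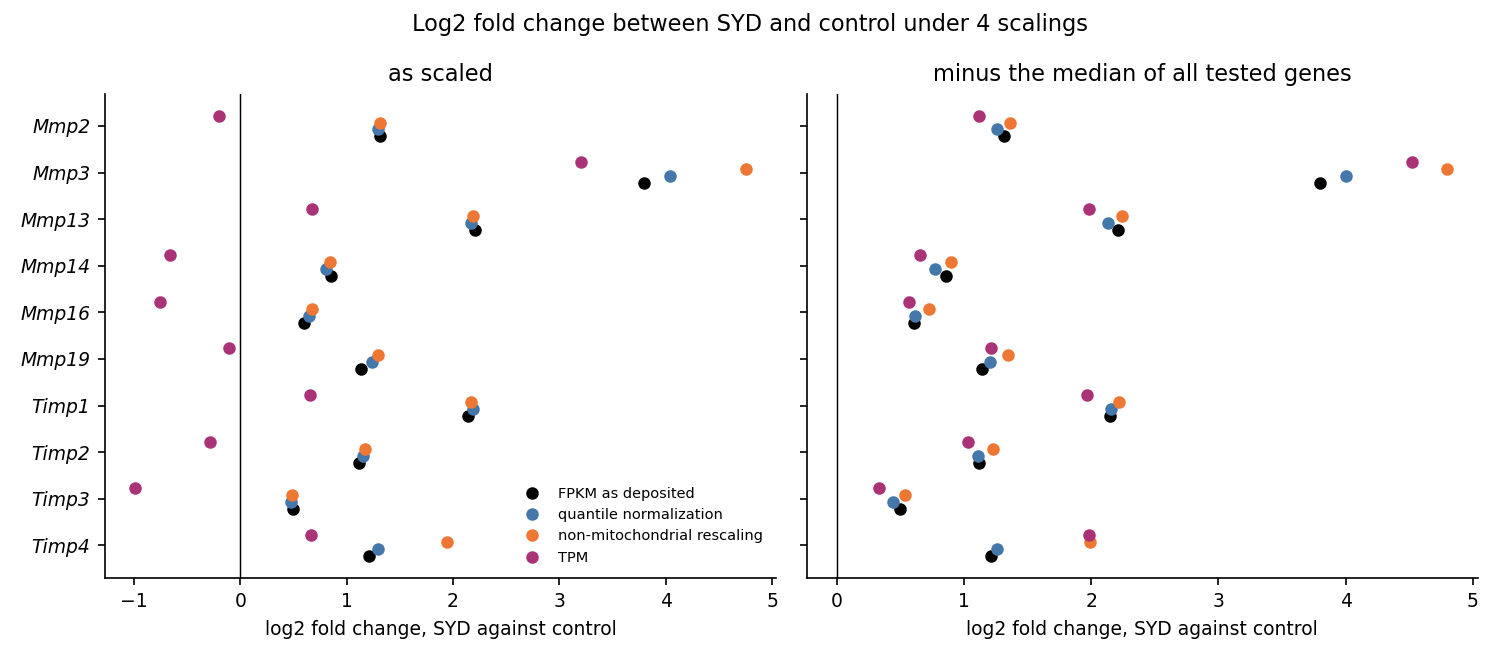
Log2 fold change of each of the 10 genes in SYD against control (horizontal axes) under 4 scalings (colours), as scaled (left) and after the median of all genes tested was subtracted (right). On the left the TPM points lie to the left of the others and 6 of 10 are below 0, and on the right all points of the 10 genes are above 0.

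Ratios within a library do not depend on its scaling. The summed FPKM of the 6 MMP genes divided by that of the 4 TIMP genes was 2.75, 3.77, and 3.44 in control libraries 1 to 3, 6.18, 3.48, and 4.26 in model libraries 1 to 3, and 4.66, 2.97, and 5.08 in SYD libraries 1 to 3. The means were 3.32 ± 0.523, 4.64 ± 1.39, and 4.23 ± 1.12 (SD, n = 3), and the groups overlapped. Without Mmp13, the ratio was 1.55 to 1.64 in the control group, 1.09 to 2.39 in the model group, and 0.869 to 1.89 in the SYD group. The sums themselves do depend on scaling. In FPKM both were higher in every SYD library than in every control library, at 391 to 906 FPKM for the MMP genes and 77.0 to 195 FPKM for the TIMP genes in the SYD group, against 96.1 to 203 and 25.5 to 74.0 FPKM in the control group. In TPM SYD library 3 was below all control libraries for both sums, at 279.7 against 474 to 1052 for the MMP genes and at 55.1 against 126 to 383 for the TIMP genes.

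The makeup of the inhibitors differed more. Timp1 made up 41.4%, 43.8%, and 42.8% of the summed TIMP FPKM in control libraries 1, 2, and 3, 65.5%, 77.7%, and 29.7% in model libraries 1, 2, and 3, and 58.3%, 67.1%, and 71.3% in SYD libraries 1, 2, and 3. The share of Timp3 was 38.5% to 44.3% in the control group and 13.1% to 27.6% in the SYD group, and 13.3%, 11.4%, and 48.4% in model libraries 1, 2, and 3. Every SYD library therefore held more Timp1 and less Timp3 among its TIMP transcripts than every control library, with Timp1-to-Timp3 ratios of 2.11 to 5.44 against 0.934 to 1.14, and model library 3 was the only operated library on the control side. The Mmp3-to-Timp1 ratio did not overlap between the control group (0.0107 to 0.0590) and the SYD group (0.142 to 0.679), but the model libraries spanned both, at 0 to 2.53. Control and SYD overlapped in every other pair ratio taken. These were Mmp13-to-Timp1 (control 2.86 to 4.88, SYD 2.22 to 6.49), Mmp2-to-Timp2, Mmp14-to-Timp2, Mmp13-to-Mmp14, and Mmp13-to-Mmp2. These ratios were examined after the levels had been seen and were not tested.

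**Figure D4:**
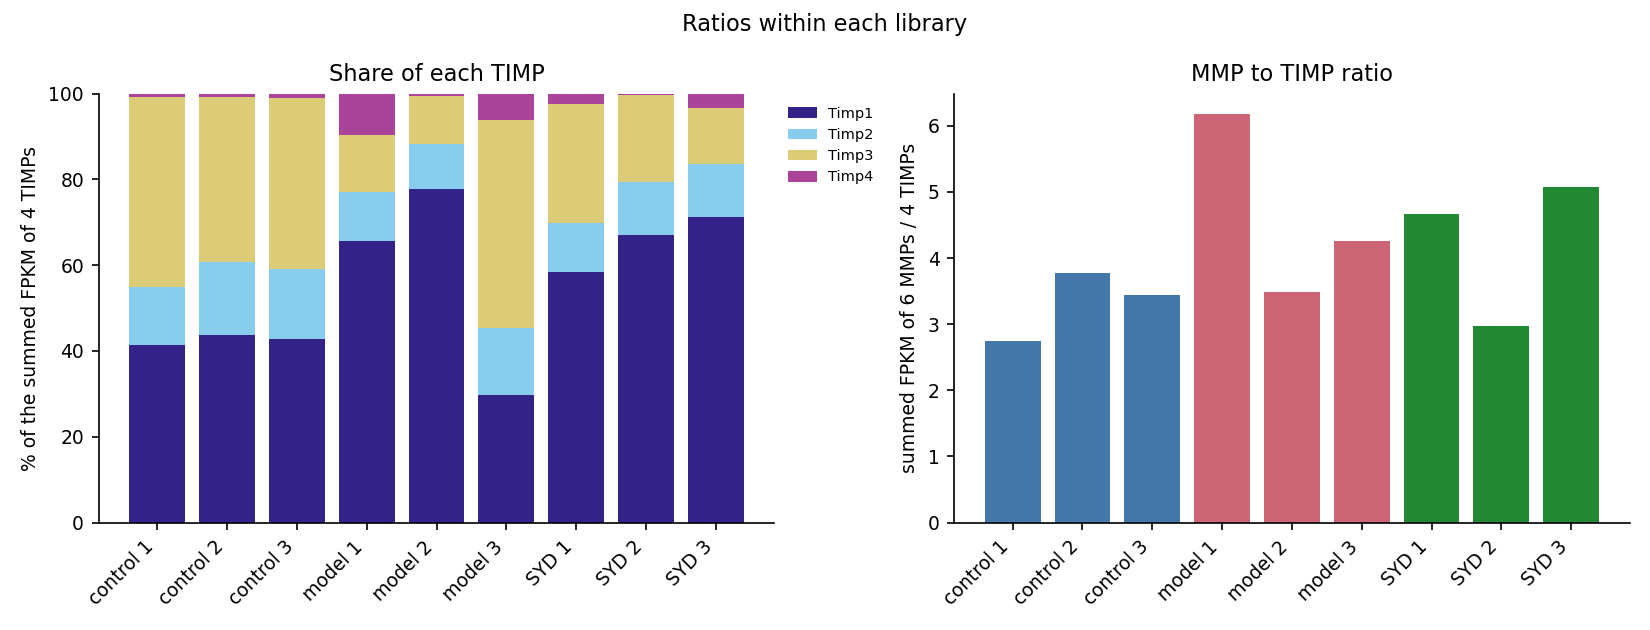
Share of each of the 4 TIMP genes in their summed FPKM, in percent (left, stacked bars), and the summed FPKM of the 6 MMP genes over that of the 4 TIMP genes (right, bars coloured by group), with 1 bar per library. The ratio of the sums overlaps between the groups (control 2.75 to 3.77, SYD 2.97 to 5.08), whereas the Timp1 share of the TIMP genes does not overlap between control (41.4% to 43.8%) and SYD (58.3% to 71.3%).

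Markers of several cell types differed between the groups and libraries. The summed FPKM of 8 osteoblast markers was 1054 to 1573 in the control group, 574 to 2547 in the model group, and 2640 to 3942 in the SYD group, and that of 7 osteoclast markers was 619 to 1071, 453 to 1795, and 2016 to 2692. These separations of SYD from control are those of the FPKM: in TPM SYD library 3 was below all control libraries, at 2740.0 against 5200 to 8179 for the osteoblast sum and at 1584 against 3055 to 5730 for the osteoclast sum. In both lists no marker was at 0 in any control or SYD library, and the osteoclast genes Ocstamp and Dcstamp were at 0 in some model libraries. In SYD against control, 2 of the 8 osteoblast markers (Runx2 and Bglap) and 4 of the 7 osteoclast markers (Acp5, Ctsk, Dcstamp, and Atp6v0d2) were called higher, where 7.25% of all genes were, as were 4 of 7 endothelial markers (Pecam1, Cdh5, Tek, and Emcn), whose sum was 39.4 to 51.6 in the control group, 19.8 to 219 in the model group, and 94.2 to 132 in the SYD group (in TPM the endothelial sums overlapped). Called lower in the same comparison were 6 of 7 B cell markers, 5 of 7 neutrophil markers, and 4 of 7 erythroid markers, where 9.22% of all genes were. The B cell sum was 238 to 308 in the control group, 4.56 to 56.5 in the model group, and 8.73 to 41.4 in the SYD group. In FPKM SYD and control overlapped for the neutrophil sum (537 to 3424 against 2967 to 5714) and the erythroid sum (1294 to 13436 against 6362 to 15704). In TPM the B cell, neutrophil, and erythroid sums of all SYD libraries were below those of all control libraries. So were the adipocyte and other MMP sums, on a scale where the median log2 difference of all genes was -1.31. Model library 2, the highest of its group for Mmp13 and Timp1, was also the highest of its group for the osteoblast, osteoclast, endothelial (219), and synovial fibroblast (160) sums and the lowest for the neutrophil (69.1), B cell (4.56), and erythroid (291) sums. Within the SYD group the order was another: library 3, the lowest for 7 of the 10 genes, had a higher osteoblast sum (3831) and osteoclast sum (2214) than library 2 (2640 and 2016). Timp4 was lowest in model library 2, where the bone cell sums of that group were highest. Synovial fibroblast markers summed to 36.6 to 77.9, 31.6 to 160, and 52.8 to 128 FPKM, and macrophage markers to 132 to 173, 81.7 to 225, and 142 to 298 FPKM, in the control, model, and SYD groups. The part of these cells in the differences described was not tested.

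**Figure D5:**
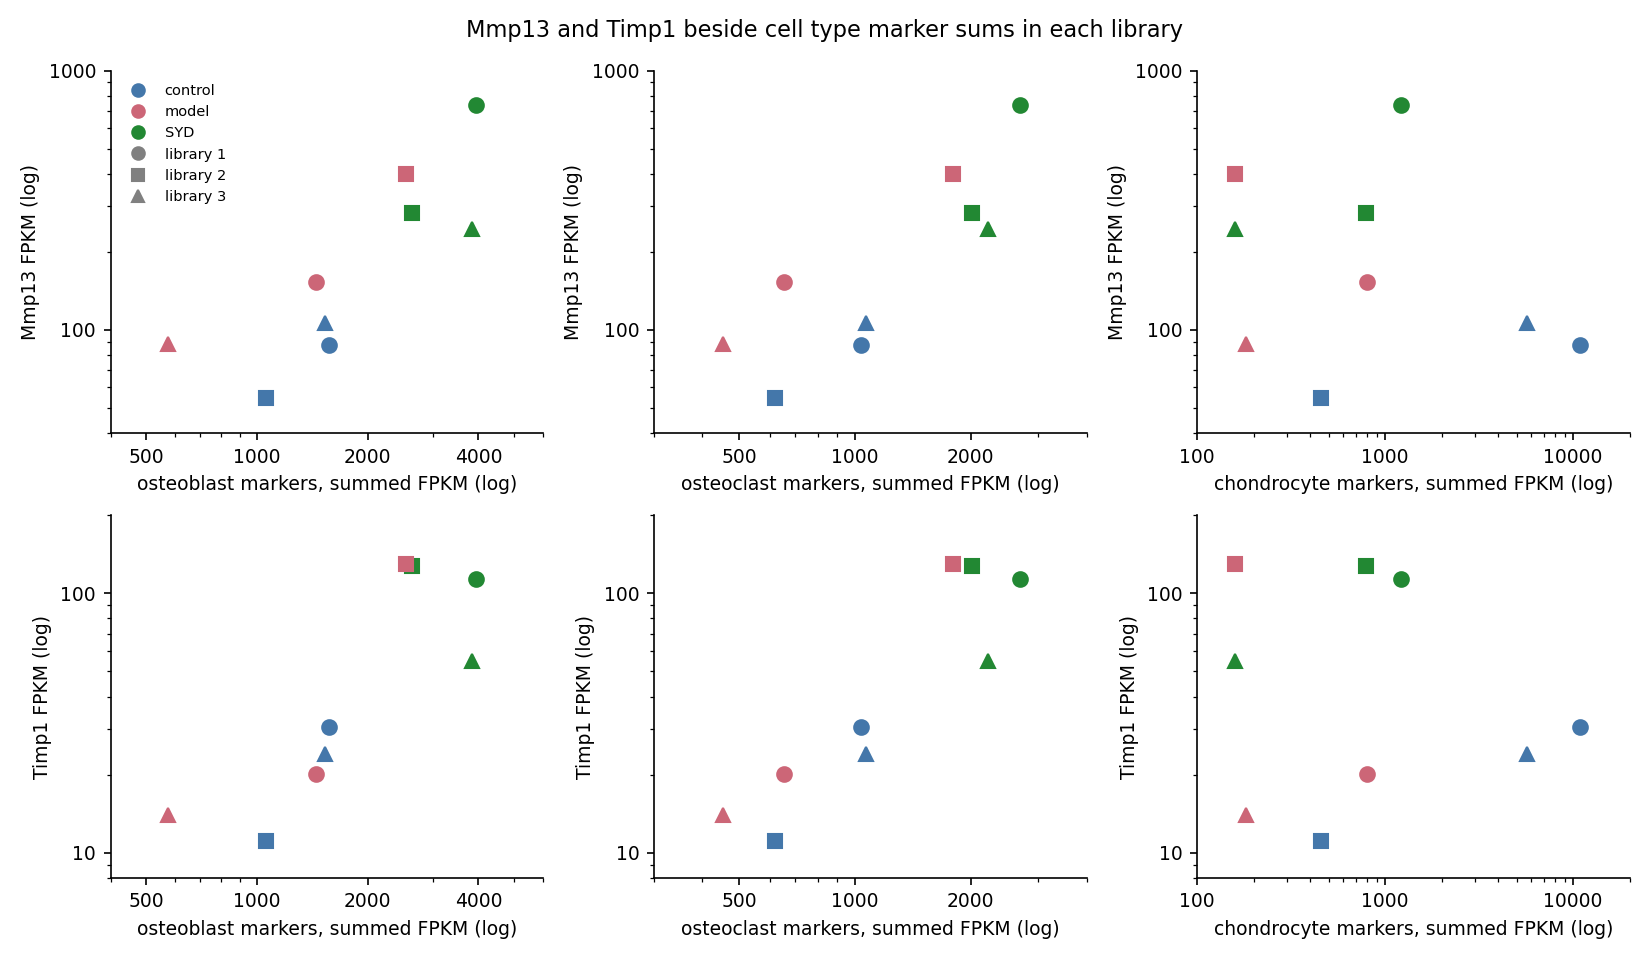
Mmp13 (top) and Timp1 (bottom) FPKM on log axes against the summed FPKM of osteoblast, osteoclast, and chondrocyte markers, also on log axes, with 1 point per library, coloured by group and shaped by library number. In FPKM, a scaling that both axes share, the SYD libraries and model library 2 are high on the bone cell sums and the 2 genes. In TPM SYD library 3 is below all control libraries for Mmp13, Timp1, and both bone cell sums. The chondrocyte sum is highest in control libraries 1 and 3. The part of any cell type in the 2 genes was not tested.

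The genes whose pattern over the 9 libraries was most like that of Mmp13, among 13897 others, were Stau1 (Pearson r = 0.98), Macf1 (r = 0.98), and Pawr (r = 0.97). Those most like Timp1 were Metrnl (r = 0.99), an unnamed locus, ENSRNOG00000064136 (r = 0.98), and Bmp1 (r = 0.98), which encodes the procollagen C-proteinase. The correlations are of log2(FPKM + 1) and describe these libraries, in which depth and mitochondrial share also vary.

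The matrix proteins that these enzymes cut were measured in the same libraries. Of 12 such genes, 6 were called lower in the model group than in the control group, namely Col2a1, Col9a1, Col9a2, Col11a1, Matn1, and Matn3, and none was called higher, where 11.2% of all genes were called lower and 3.55% higher. The list had a median log2 difference of -2.48 beside -0.23 over all genes. Col2a1, the chain of type II collagen, was at 8323, 348, and 4468 FPKM in control libraries 1, 2, and 3, at 606, 39.0, and 56.1 FPKM in the model group, and at 609, 430, and 42.4 FPKM in the SYD group. Control library 2 was thus below model library 1. That control library, the lowest of its group for all 10 MMP and TIMP genes, was also the lowest there for the chondrocyte (456), osteoblast (1054), osteoclast (619), synovial fibroblast (36.6), and endothelial (39.4) sums and highest for the neutrophil (5714), B cell (308), and erythroid (15704) sums. The log2 difference of Col2a1 between model and control was -4.40 ± 1.53 (SE, limma adjusted p = 0.193). In SYD against model 0 of the 12 were called (limma, 0 at an unadjusted p under 0.05), where 4.15% of all genes were. In SYD against control Dcn, which encodes the collagen-binding proteoglycan decorin, was called higher (1.96) and Matn1 lower (-2.66). Over all genes 7.25% were called higher in that comparison and 9.22% lower. Col2a1 and Bgn, which encodes the proteoglycan biglycan, had the highest means of the list.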

How the data were processed

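Total RNA libraries of rat knee cartilage were grouped by the sample labels into control, model, and SYD, with 3 libraries each. The authors deposited 1 table of FPKM per gene and library. Per the labels, the submitters' processing notes name HISAT2 2.0.5 and hg38, a human build, although the table lists rat Ensembl genes, so the build of its positions is not given in the sources used here, nor is the counting tool. The extraction text of the labels speaks of retina, the tissue label of cartilage. From the steps of the deposited FPKM, whole reads were recovered for 100% of values (within 0.1 of a whole number).

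The 13898 genes whose FPKM averaged 0.5 or more across the 9 libraries were tested on log2(FPKM + 1) with limma 3.58.1 (trend, two-sided, R 4.3.3), fitted to the 6 libraries of each comparison, with Benjamini–Hochberg adjustment over all of them. The call rule was that of the study, an absolute log2 fold change over 1 with an unadjusted p under 0.05. The fit was tested on simulated data. Single genes were also compared by exact two-sided permutation tests (scipy 1.17.1). Alternatives were a pseudocount of 0.1, other filters, TPM, quantile normalization, rescaling over non-mitochondrial genes, a shared spread, a replicate block, voom on recovered reads, and leaving out each library. Intervals and floors cover counting error only.

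The 10 genes and all lists were chosen with earlier results of these data known. Of the accompanying lists, the genes called in a comparison (up to 5 per list) and the 2 with the highest mean FPKM were named, and for Mmp13 and Timp1 the 3 genes with the highest correlation. A single called gene of these lists is not reported here. Voom called 3275, 1078, and 3391 genes in model against control, SYD against model, and SYD against control, where limma on log2(FPKM + 1) called 2046, 577, and 2289.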

Additional observations from a re-analysis of the deposited data

How the results depend on the processing

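In model against control 1 of the 10 genes was called (14.7% of all genes). The count was 0 with a pseudocount of 0.1, without a filter, with non-mitochondrial rescaling, and with all 9 libraries in one fit (8.87% to 17.3% of all genes). It was 3 in TPM (all lower, where 75.2% of all genes were called), 2 with quantile normalization (14.7% of all genes), and 0 to 1 when 1 library was left out (9.42% to 24.1% of all genes). Voom called 1, Mmp19 in place of Timp4 (23.6% of all genes). In SYD against model 0 were called (4.15% of all genes), and 0 to 5 when 1 library was left out. The 5 were called without model replicate 2 (18% of all genes, against 2.27% to 3.73% without any other library). In SYD against control 7 were called (16.5% of all genes), 1 in TPM (43.4% of all genes, 0.921% as higher), and 3 to 6 when 1 library was left out (12.9% to 18.7% of all genes). The count was 3 without control replicate 2, control replicate 3, or SYD replicate 1, and 4 without control replicate 1 or SYD replicate 2. The exact test over 3 groups gave 0 genes under 0.05 (18.6% of all genes), and 0 to 2 when 1 library was left out, 2 without model replicate 2 or 3.

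The replicate numbers did not pair the libraries: the correlation of same-numbered libraries ran from -0.27 to 0.19, and 1 of 9 libraries correlated best with its own number. With the replicate block the counts were 0 in model against control (12% of all genes), 2 in SYD against model (Mmp14 and Timp1, with 3.78% of all genes), and 4 in SYD against control (16.3% of all genes). In the last of these fits adjusted p-values (limma) were 0.0524 for Mmp3, 0.074 for Mmp13, and 0.091 for Timp1.

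Log2 differences changed sign in TPM for model against control in Mmp2 (-2.81), Mmp13 (-2.05), Mmp16 (-2.51), Mmp19 (-1.99), Timp1 (-2.32), Timp2 (-2.61), and Timp4 (-0.62), and for SYD against control in Mmp2 (-0.20), Mmp14 (-0.66), Mmp16 (-0.75), Mmp19 (-0.11), Timp2 (-0.29), and Timp3 (-0.99). With non-mitochondrial rescaling they changed in model against control for Mmp2 (-0.013), Mmp16 (-0.10), and Timp2 (-0.15), and with quantile normalization in SYD against model for Timp4 (-0.10). Leaving out 1 library turned the sign in model against control for Mmp2 (range -0.45 to 0.95, negative without control or model replicate 2), Mmp14 (-0.68 to 0.21, positive without control replicate 1 or model replicate 1), Mmp16 (-0.073 to 0.29, negative without control or model replicate 2), Timp1 (-0.26 to 1.31, negative without model replicate 2), Timp2 (-0.45 to 0.56, negative without control or model replicate 2), and Timp3 (-1.06 to 0.092, positive without model replicate 1), and in SYD against model for Timp4 (-0.26 to 0.59, negative without model replicate 2 or SYD replicate 1). TPM sets every library to the same total, mitochondrial genes included, and for the other changes the cause was not tested. The depth of model replicates 1 and 3 limits every comparison that uses the model group.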

Other observations

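Of the 19 other MMP genes listed 17 were in the table and 10 passed the filter on low values. Mmp9, the gelatinase of osteoclasts and neutrophils, had the highest mean of these, and Mmp8, the neutrophil collagenase, the next. Mmp9 stood at 308, 164, and 263 FPKM in control libraries 1, 2, and 3, at 72.9, 143, and 99.4 FPKM in model libraries 1, 2, and 3, and at 409, 269, and 202 FPKM in SYD libraries 1, 2, and 3. In FPKM all model libraries were below all control and all SYD libraries, whereas in TPM model library 2 (321) was above SYD library 3 (145). It was called lower in model against control (log2 difference -1.22 ± 0.38 SE, limma adjusted p = 0.158) and higher in SYD against model (1.47 ± 0.39 SE, limma adjusted p = 0.723), comparisons that share the model libraries. Mmp25, a membrane-bound enzyme of leukocytes, was called lower in model against control (-1.13), Mmp23 higher in SYD against control (1.27), and Mmp8 lower in SYD against control (-1.71). Mmp8 was at 44.3, 109, and 80.5 FPKM in the control group, 166, 0.593, and 20.6 FPKM in the model group, and 15.8, 10.2, and 60.3 FPKM in the SYD group. Neutrophil markers, a list that holds Mmp8 itself, summed to 2967 to 5714 FPKM in the control group, 69.1 to 7943 in the model group, and 537 to 3424 in the SYD group, and osteoclast markers, a list that holds Mmp9 itself, had 4 of 7 members called higher in SYD against model (Mmp9, Acp5, Dcstamp, and Nfatc1), where 3.62% of all genes were. The part of these cells in the values of Mmp8 and Mmp9 was not tested.

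Of 17 genes for MMP activators and further inhibitors 13 passed the filter. In SYD against control 5 were called higher and 0 lower, where 7.25% of all genes were called higher and 9.22% lower. Among the 5 were the plasminogen activators Plau (1.31 ± 0.23 SE) and Plat (1.91 ± 0.68 SE), the protease inhibitor Serpine2 (1.40 ± 0.33 SE), and the serine protease inhibitor Tfpi2 (2.31 ± 0.53 SE). The limma adjusted p-values of these genes were 0.0194, 0.107, 0.0415, and 0.0373. In SYD against model Reck, a membrane-anchored MMP inhibitor, and Lrp1, the endocytic receptor that clears MMPs and TIMPs, were called higher (1.45 and 1.40, limma adjusted p = 0.723 for both). Over all genes 3.62% were called higher in that comparison and 0.532% lower. In model against control 0 were called (limma, 1 at an unadjusted p under 0.05), where 14.7% of all genes were. Serpine2 and Bsg, which encodes the MMP inducer basigin, had the highest means of the list.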
